A study of Mus musculus with 7 samples.

Results

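The genes for the proteins of the cytoplasmic ribosome were examined in microglia of the mouse cortex. Members were chosen by gene name, as Rpl or Rps followed by a number with or without further letters, Rplp0 to Rplp2 and Rpsa, leaving out names of pseudogene copies with -ps and the Rps6 kinases. The rule found 88 of 55341 gene names. The edgeR filter on low counts kept 84 of them among 15257 genes, 51 of the large (60S) and 33 of the small (40S) subunit. The members Rpl3l, Rpl6l, Rpl10l and Rpl32l had at most 17 reads in any library and were not tested. The rule does not reach Rps3a1, Fau and Rack1, whose names follow other patterns, and these are described beside the members.

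Microglia were sorted as CD11b+CD45low cells from WT cortical grafts in 5xFAD mice (inside graft, 3 libraries) and from the host cortex near the grafts (outside graft, 4 libraries). All were taken 4 weeks after injection at a labelled age of 14 weeks. Recipients in both groups were 5xFAD on C57BL/6, which carry human APP and PS1 transgenes with familial Alzheimer's disease mutations driven by the neuronal Thy1 promoter. Grafts were cell suspensions of embryonic cortex from C57BL/6 WT mice. The study used female mice only. The sources do not say whether each library came from its own mouse, whether mice were pooled, or whether inside and outside samples share a mouse, so P values measure the spread between these libraries.

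All 8 microglial markers, among them Cx3cr1 and Tmem119, were tested and their levels summed to 42692 to 49022 CPM (read counts scaled to library size) inside and 48531 to 54471 CPM outside the graft. Markers of other cells moved with the group: 4 neutrophil markers summed to 387 to 7931 CPM inside and 0.267 to 170 CPM outside, and 9 monocyte markers to 99.1 to 1415 CPM inside and 17.8 to 38.4 CPM outside. Inside the graft the neutrophil sum was mostly S100a8 and S100a9, and the monocyte sum mostly Chil3. Of these genes Ly6g, which defines neutrophils, was at 0 in 3 of the 4 outside libraries. Retnlg, also a neutrophil marker, overlapped, with 1.37, 0 and 2.61 CPM inside and 0, 0, 3.10 and 0.81 CPM outside. Of the monocyte markers 8 had a log2 fold change above 0, and Vcan was at −0.03. Of 10 markers of border-associated macrophages, which line brain vessels and meninges, 8 were tested and 7 were above 0, with a median log2 fold change of 3.50 and 6 unadjusted P below 0.05 upward. Among them Pf4 had 9.85, 3.15 and 18.8 CPM inside and 0.0445 to 0.972 CPM outside, while the summed level, mostly Stab1, was 396 to 654 CPM inside and 533 to 633 CPM outside. Neutrophils and monocytes are CD45high cells that the gate is meant to leave out. The 8 proliferation markers summed to 106 to 149 CPM inside and 31.3 to 57.7 CPM outside, and 7 dissociation-induced genes to 385 to 489 CPM and 364 to 464 CPM. The latter sum was mostly Jun and Junb, with log2 fold changes of −0.29 and −0.06. The other 5 of these 7 genes were above 0, and the median of the 7 was 0.64. Only Atf3 had an unadjusted P below 0.05 by edgeR, with 50.4, 59.5 and 40.5 CPM inside and 27.2, 32.2, 17.3 and 26.2 CPM outside. Neuronal markers stayed at 10.4 CPM or below in every library. Counts per library ran from 18644807 to 25882122, and these are amplified reads without molecular identifiers. In bulk samples, fewer cells of a type and less RNA per cell cannot be told apart.

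Each cytoplasmic ribosome is built from a small subunit, which reads the messenger RNA, and a large subunit, which joins amino acids. Nearly all of their proteins are needed in 1 copy per ribosome, and cells make them together. In mammals many of these messenger RNAs begin with a cytosine followed by a run of pyrimidines, the 5′ TOP element, through which mTORC1 and the protein LARP1 control their translation. Microglia are the long-lived resident macrophages of the brain.

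The summed ribosomal protein counts ranged more widely within each group than the group means differed. Members took 0.647%, 0.912% and 0.735% of the counts in inside graft 1, 2 and 3. They took 0.697%, 0.717%, 0.491% and 0.531% in outside graft 1 to 4. The mean was 0.765% ± 0.135 (SD, n = 3) inside and 0.609% ± 0.115 (SD, n = 4) outside, a ratio of 1.26, and the groups overlapped. Inside graft 2 stood highest, outside graft 3 and 4 lowest, and the other 4 libraries lay between 0.647% and 0.735%. Read numbers behind these shares were large, so that the 95% Wilson interval for inside graft 1 ran from 0.644% to 0.65%, which covers counting error only.

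**Figure D1:**
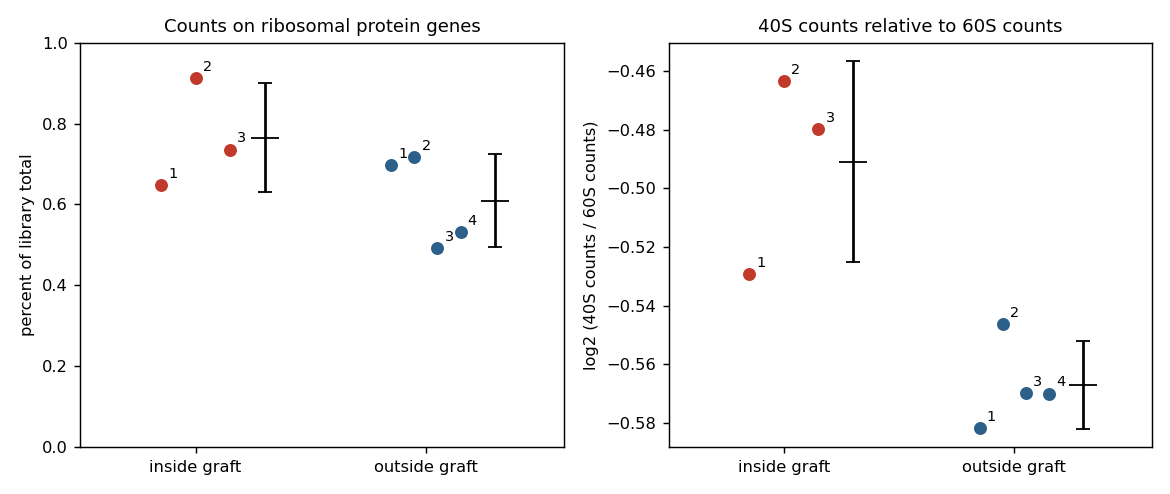
Each point is 1 library (numbered by replicate), with the mean and SD of its group in black. Left, percent of all counts on the 88 members, where inside graft 2 (0.912%) is highest and outside graft 3 (0.491%) lowest; right, log2 of 40S over 60S counts, where all 3 inside libraries lie above all 4 outside libraries.

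Nearly all members followed this order of libraries. The highest level (CPM) of 78 of the 84 tested members was in inside graft 2. The lowest level was in outside graft 3 for 67 members and in outside graft 4 for 13. For 73 members, outside graft 3 and 4 were the 2 lowest libraries. Relative to each gene's own mean over the 7 libraries, on a log2 scale of CPM + 0.5, the members' median was −0.02, 0.51 and 0.13 in inside graft 1, 2 and 3. It was 0.07, 0.12, −0.47 and −0.33 in outside graft 1 to 4. Inside graft 1, with a neutrophil sum of 3712 CPM, was near the level of outside graft 1 and 2. Inside graft 2 had the highest ribosomal protein level and, at 387 CPM, the lowest neutrophil sum of the 3 inside libraries. Inside graft 3 had the highest neutrophil sum, at 7931 CPM, and a members' median of 0.13, above that of inside graft 1. The part of these other cells in the family's level was not tested.

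**Figure D2:**
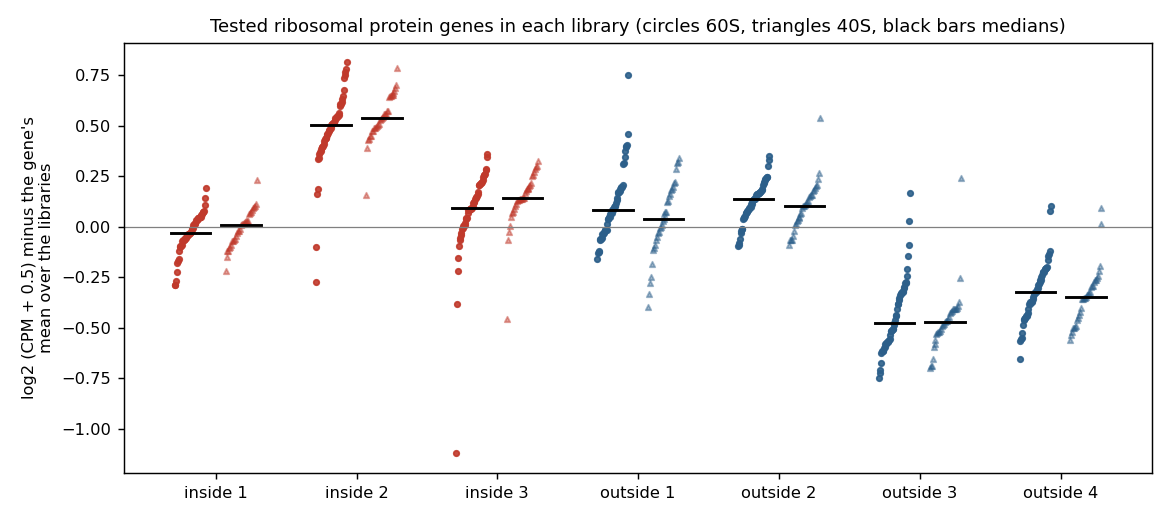
Each symbol is 1 tested member in 1 library (circles 60S, triangles 40S); the vertical axis is log2 (CPM + 0.5) minus that gene's mean over the 7 libraries. The members move together, up in inside graft 2 (median 0.51) and down in outside graft 3 and 4 (−0.47 and −0.33).

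Ribosomal protein genes were, as a family, slightly higher inside the graft, but no single gene passed the test. The median log2 fold change (inside minus outside) of the 84 tested members was 0.35, which is 1.28-fold, against −0.01 for all 15257 genes. It was above 0 for 81 members (96.4%), against 49.2% of all genes. The middle of the family was narrow, with quartiles of 0.27 and 0.44. With edgeR's quasi-likelihood test and Benjamini-Hochberg adjustment over all genes, 0 members had an adjusted P below 0.01, and 0 of all genes did (0%). At an adjusted P below 0.05 it called 0 members and 0.0983% of all genes. The smallest adjusted P among members with edgeR was 0.266. With the unadjusted P below 0.05, 18 members (21.4%) were higher and 0 lower, against 5.76% and 3.79% of all genes (9.55% in both directions). The 84 members share the same 7 libraries and move together, so their number is not a number of replicates.

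With voomWithQualityWeights of limma, the test of the study's methods, 0 members and 0.0197% of all genes passed 0.01, and at 0.05 the test called 0 members and 0.492% of all genes. Of the members, 57 had an unadjusted P below 0.05, all higher inside, against 7.47% of all genes in that direction and 4.71% in the other, and the members' median log2 fold change was 0.47. This test gave the smallest weight, 0.448, to outside graft 1. The largest, 1.71 and 1.76, went to outside graft 3 and 4, where the members took the smallest shares of counts. By voom without weights, 27 members and 10.4% of all genes had an unadjusted P below 0.05, and the members' median was 0.39. DESeq2 called 0 members and 1.52% of all genes at 0.01, and 0 members and 2.75% of all genes at 0.05. In the alternative with the replicate number as a block and without outside graft 4, voomWithQualityWeights called 1 member, Rpl32, and 1.78% of all genes at 0.05. The size of the shift depended on inside graft 2: without it the members' median was 0.18 and 76 were above 0, and without inside graft 1 it was 0.48. Removing the trend of fold change on transcript length, an alternative chosen after seeing the data, lowered the median to 0.22.

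Rpl41, Rpl32, Rpl36 and Rps18 were among the members with the largest log2 fold changes. Rpl41, the shortest protein of the large subunit, had 106, 164 and 131 CPM inside and 93.8, 115, 68.7 and 69.7 CPM outside the graft. The log2 difference between the groups was 0.63 (SE 0.21, adjusted P = 0.314 by edgeR with Benjamini-Hochberg), and outside graft 2 lay above inside graft 1. Rpl32, another large-subunit protein, had 166, 275 and 188 CPM inside and 159, 170, 98.5 and 125 CPM outside. The groups differed by 0.61 on the log2 scale (SE 0.22), and the groups overlapped by the narrow margin between inside graft 1 and outside graft 2. Rpl36 and Rps18 differed by 0.60 and 0.57 on the log2 scale.

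Only 2 members, Rpsa and Rps26, had every inside library above every outside library. That is 2.38% of the tested members, against 5.65% of all genes, and 0 members had every inside library below, against 5.02%. Rpsa, which is a small-subunit protein and also the precursor of the laminin receptor, had 77.4, 105 and 80.4 CPM inside and 67.0, 69.1, 53.9 and 58.1 CPM outside the graft. The difference on the log2 scale was 0.50 (SE 0.15, 95% interval 0.16 to 0.84), with an unadjusted P of 0.00837 and an adjusted P of 0.266 in edgeR's test with Benjamini-Hochberg adjustment. Rps26, a small-subunit protein near the mRNA exit, had 49.4, 65.1 and 55.3 CPM inside and 46.3, 47.4, 33.6 and 34.9 CPM outside. The difference on the log2 scale was 0.48 (SE 0.18), and inside graft 1 exceeded outside graft 2 by a margin far smaller than the spread within the groups. The count of members without overlap rested on inside graft 1 and outside graft 2: it was 35 (33 higher, 2 lower) without inside graft 1, where 9.74% of all genes were higher and 9.35% lower without overlap. Leaving out outside graft 2 gave 23 such members (22 higher, 1 lower), where 8.70% of all genes were higher and 8% lower without overlap. Leaving out outside graft 1 gave 8 (9.52% of members), all higher, where 7.91% of all genes were higher and 8.04% lower.

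The small subunit stood slightly above the large one. The median log2 fold change was 0.43 for the 33 tested 40S members and 0.33 for the 51 tested 60S members. Of the 18 members with an unadjusted P below 0.05 in edgeR, 13 were 40S and 5 were 60S. The log2 ratio of summed 40S to summed 60S counts, which does not depend on normalization between libraries, was −0.53, −0.46 and −0.48 inside the graft. It was −0.58, −0.55, −0.57 and −0.57 outside. Each inside library lay above each outside library, with means of −0.49 ± 0.03 (SD, n = 3) and −0.57 ± 0.01 (SD, n = 4), a difference of 0.08 on the log2 scale. The separation remained when annotated pseudogenes and Rpl7l1 were left out (−0.50 or above inside, −0.53 or below outside) and in the median of the single genes, at 0.04 or above inside and 0.01 or below outside. No test was run on this ratio, which was chosen after its values were seen.

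**Figure D3:**
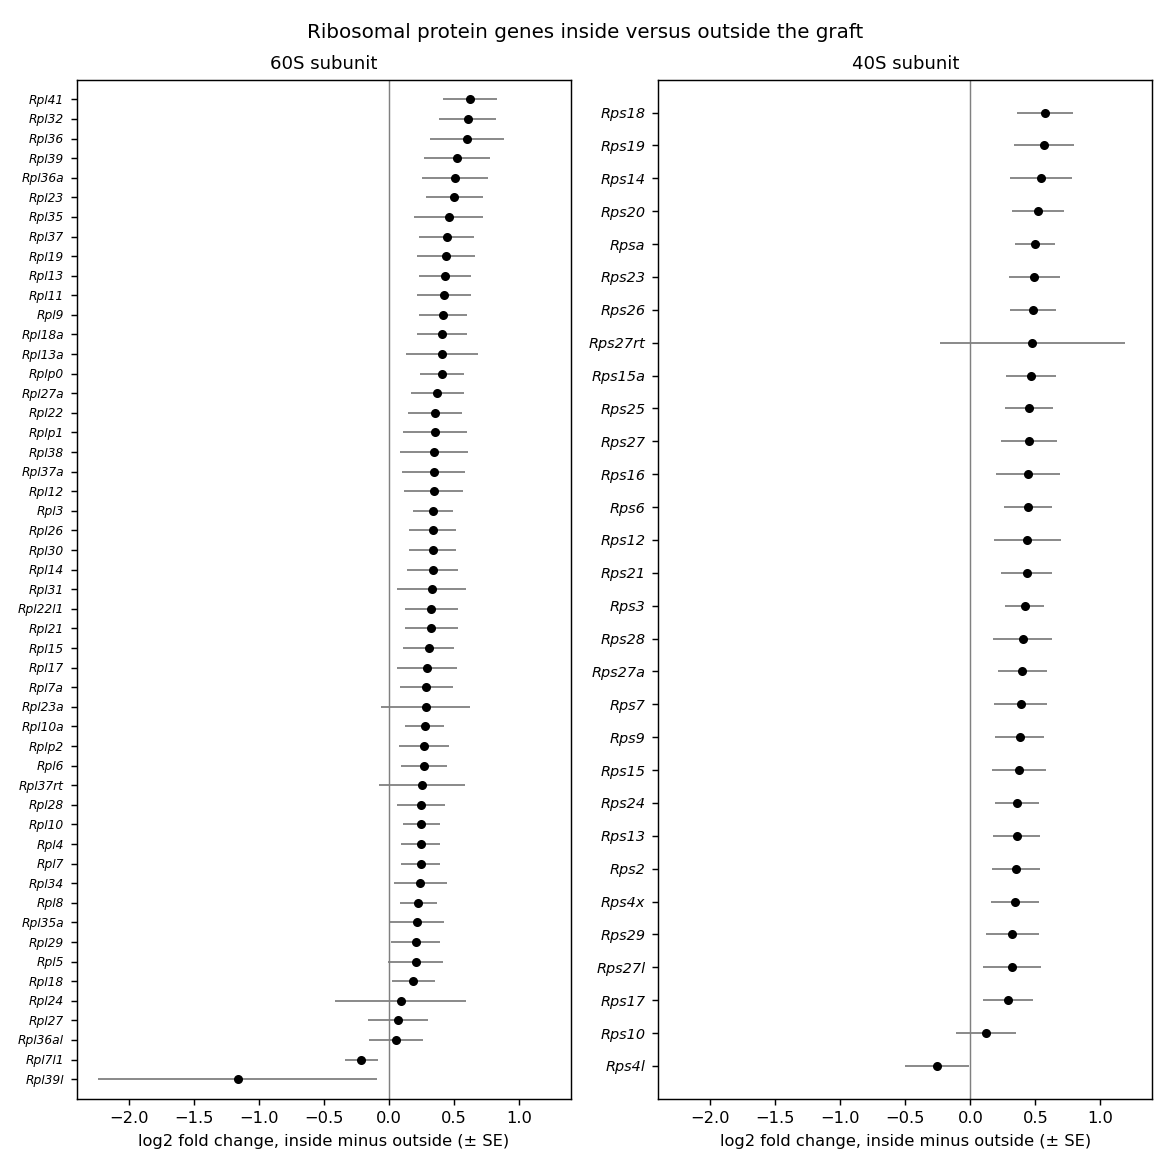
Log2 fold change (inside minus outside, edgeR) with its standard error for 51 tested 60S members (left) and 30 of the 33 tested 40S members (right), ordered by size within each subunit. All but Rpl39l, Rpl7l1 and Rps4l lie above 0, and the long bars of Rpl39l, Rpl24 and Rps27rt belong to genes with few reads.

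The 3 members with a log2 fold change below 0 were all paralogs of core ribosomal genes. Rpl7l1, a relative of Rpl7 known for a part in making the large subunit, had 108, 103 and 94.7 CPM inside and 138, 104, 113 and 119 CPM outside (log2 fold change −0.21, SE 0.13, adjusted P = 0.669 by edgeR with Benjamini-Hochberg). As a percentage of Rpl7 counts it was 69.4% ± 9.25 (SD, n = 3) inside and 95.5% ± 15.8 (SD, n = 4) outside, with overlap. Rps4l, annotated in GENCODE as a transcribed processed pseudogene, had 24.7, 29.6 and 19.1 CPM inside and 20.01, 38.7, 31.3 and 26.8 CPM outside. Rpl39l, a paralog of Rpl39 best known from the testis, had 19, 9 and 0 reads inside and 25, 17, 18 and 16 reads outside. Its log2 fold change of −1.16 had an SE of 1.07 and an interval from −3.55 to 1.22. Relative to Rpl39, Rpl39l counts were 2.22%, 0.823% and 0% inside and 2.52% to 3.81% outside.

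Among the other paralogs, Rps27l, a paralog of Rps27 that p53 induces, had 50.4, 80.0 and 60.4 CPM inside and 61.5, 62.6, 39.1 and 40.4 CPM outside the graft. Its counts were 50.7%, 49.3% and 51.0% of those of Rps27 inside and 56.4%, 54.5%, 54.5% and 53.7% outside, so that every inside library lay below every outside one. Rpl22l1, the paralog of Rpl22, was at 53.7% ± 10.6 of Rpl22 inside (SD, n = 3) and 54.6% ± 12.1 outside (SD, n = 4). Rpl36al was at 64.3% ± 15.8 of Rpl36a inside (SD, n = 3) and 86.1% ± 11.8 outside (SD, n = 4), with overlap, and its log2 fold change of 0.06 was the smallest above 0. Rps27rt, Rpl3l and Rpl10l held at most 1.08% of the counts of their parents in any library. Most 75-base stretches of Rps27 (98.5%) and Rps27rt (90.3%) also occur in other genes, and reads that align to several places were not counted, so these levels are uncertain.

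**Figure D4:**
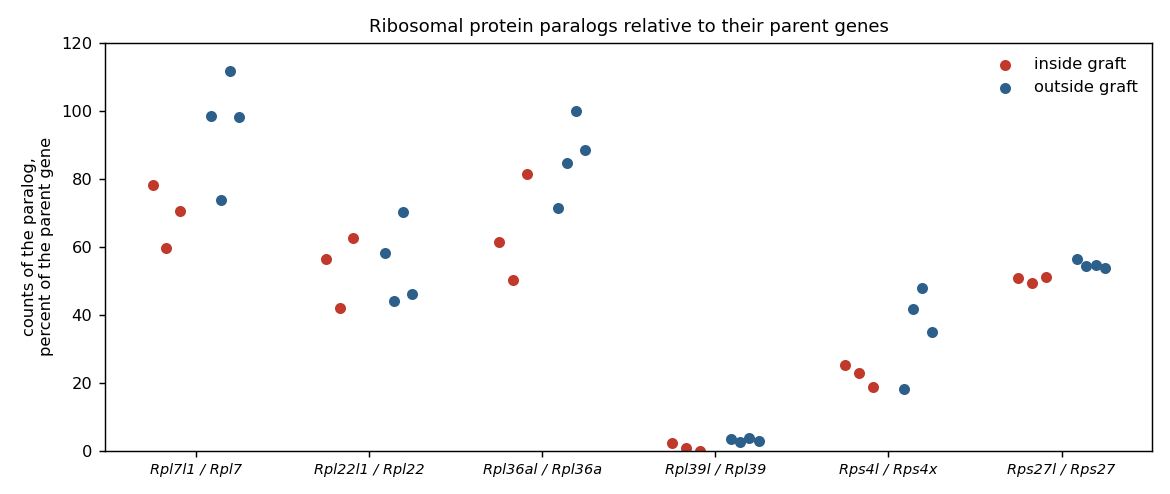
Counts of 6 paralogs as a percentage of the counts of their parent gene, 1 point per library, inside (red) and outside (blue) the graft. Rps27l and Rpl39l (0 to 19 reads inside) are lower relative to their parents in every inside library, and the other 4 pairs overlap. Rps27rt, Rpl3l and Rpl10l, which are not drawn, overlap too.

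Members of particular roles followed the family. The stalk, which recruits elongation factors to the large subunit, is built on Rplp0 with Rplp1, Rplp2 and Rpl12, and its 4 genes had log2 fold changes of 0.27 to 0.41. Rplp0 was at 210.1, 290 and 212 CPM inside and 183, 219, 142 and 170 CPM outside, with outside graft 2 above inside graft 1 and 3. Rpl5 and Rpl11, which bind the 5S ribosomal RNA and, when free, restrain Mdm2, had log2 fold changes of 0.20 (SE 0.21) and 0.42 (SE 0.21). Rps27a, made as a fusion with ubiquitin, had 0.40 (SE 0.19). Rps6, the substrate of S6 kinase, had 81.2, 109 and 83.3 CPM inside and 62.2, 89.0, 56.7 and 60.1 CPM outside, a log2 fold change of 0.44 (SE 0.18, adjusted P = 0.464 by edgeR with Benjamini-Hochberg). Only outside graft 2 reached the inside libraries.

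The 9 members that are mutated in Diamond-Blackfan anemia, a failure of red cell formation, had log2 fold changes from 0.12 to 0.56 with a median of 0.36. The highest was Rps19, the gene most often mutated in it, at 80.1, 124 and 99.1 CPM inside and 85.9, 85.0, 48.7 and 54.3 CPM outside the graft. The lowest was Rps10, at 20.2, 32.1 and 23.2 CPM inside and 27.2, 27.3, 17.7 and 20.6 CPM outside. Rpl24 and Rpl27 also stood near 0, at 0.09 (SE 0.50) and 0.07 (SE 0.23). Rpl24, a protein of the bridge between the subunits, had only 39 to 77 reads per library, and 80.9% of its 75-base stretches are shared, mostly with an overlapping gene (Gm28037). Rps10 overlaps the exons of other genes too, with 49.3% of its stretches shared.

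As a percentage of all member counts, 4 of 84 tested members had groups without overlap, 2 higher and 2 lower inside the graft. This share has no counterpart over all genes. In CPM, which is another measure, 5.65% of all genes were higher and 5.02% lower without overlap. Whether 4 of 84 exceeds a background of such shares is therefore not known. Rpl32 was among the higher and Rps10 among the lower. Rps10 took 0.308%, 0.334% and 0.322% of member counts inside and 0.392%, 0.385%, 0.367% and 0.389% outside. Rpl32 took 2.53%, 2.87% and 2.61% inside and 2.30%, 2.39%, 2.04% and 2.36% outside. These shares sum to a whole in each library, so that a higher share of 1 gene lowers those of others, and no test was run on them.

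Measured levels spread widely, although nearly all of the proteins are needed in equal numbers. Per kilobase of annotated exon, levels ran from 0.792 to 220 CPM per kilobase with a median of 31.6. The exon length covers all annotated transcripts of a gene and can far exceed 1 transcript. It was 4685 bases for Rps19, with a transcript of 774 bases, and 499 bases for Rplp1, with a transcript of 499. This length enters the levels and their order, and its part in the spread was not tested. Rplp1 (220) and Rps29 (207) were among the highest, and the lowest were Rpl39l (0.792), Rps27rt (2.04) and Rpl24 (2.31). Among the 79 members of at least 10 CPM the range was 34.0-fold. Over 82 protein-coding tested members, a median of 43.3% of the 75-base stretches of the transcript occur in another gene, and reads that cannot be placed are lost. The median level was 39.9 CPM per kilobase for the 19 members with under 25% shared, 30.4 for the 46 with 25 to 75% and 33.0 for the 17 with 75% or more. The median log2 fold change was 0.37, 0.35 and 0.36 in these classes. Named pseudogene rows held 0.503% to 0.832% of member and copy counts in any library, and of the parents only Rpl23a, with 11.2% in its copies, passed 10%. The copy with most of these reads was Rpl23a-ps2, at 10.3% of parent and copies.

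The members share features that the rule did not use. Of the 82 tested protein-coding members, 29 (35.4%) hold a small nucleolar RNA within the gene, against 1.92% of 11849 tested protein-coding genes. A cytosine followed by 4 pyrimidines at the RefSeq start was found for 14 of 66 members (21.2%), against 2.23% of 9381 tested protein-coding genes and 2.49% of all 27025 promoters. The letters CTTTCC stand on the sense strand within 50 bases of the start in 28.8% of members and 4.67% of promoters, a motif chosen after the sequences were seen. The median log2 fold change was 0.43 for the 13 tested members with the cytosine and pyrimidine start and 0.36 for the other 50 with a sequence. The 30 bases around such starts of 5 members and Rack1 are given here to show this element, followed by 3 members without it, in RefSeq GRCm38.p6, 15 bases before and 15 after the start, with the pyrimidine run that covers the start in capitals.
Rps6 (chr4:86857353-86857382, minus strand): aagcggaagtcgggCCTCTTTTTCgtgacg
Rps27 (chr3:90213634-90213663, minus strand): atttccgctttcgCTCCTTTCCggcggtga
Rps18 (chr17:33955651-33955680, minus strand): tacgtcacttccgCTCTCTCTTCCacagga
Rps10 (chr17:27635230-27635259, minus strand): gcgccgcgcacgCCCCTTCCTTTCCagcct
Rpl15 (chr14:18270972-18271001, minus strand): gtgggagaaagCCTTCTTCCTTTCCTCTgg
Rack1 (chr11:48800345-48800374, plus strand): cggaggccgCTCTTTCTTTTTCTCCacagg
Rpl7l1 (chr17:46782642-46782671, minus strand): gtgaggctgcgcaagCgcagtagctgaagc
Rpl39l (chr16:10170213-10170242, plus strand): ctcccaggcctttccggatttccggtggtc
Rpsa (chr9:120127751-120127780, plus strand): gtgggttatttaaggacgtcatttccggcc
Rps18 and Rps10, both with the element, stand near the top and the bottom of the 40S log2 fold changes. Rpl7l1 and Rpl39l, with log2 fold changes below 0, lack it at this start, as does Rpsa, at 0.50. RefSeq gives 1 start per gene here, and which start these cells use was not measured.

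Proteins of the subunits with other names were near the members. Rack1, a scaffold on the head of the small subunit, had 107, 172 and 138 CPM inside and 113, 145, 103 and 109 CPM outside the graft, a log2 fold change of 0.25 (SE 0.18) that was 0.06 without inside graft 2 and 0.41 without inside graft 1. Fau, the precursor of the small-subunit protein eS30, had 0.37 (SE 0.23). Rps3a1, named after its values were seen, had 0.45 (SE 0.16, adjusted P = 0.385 by edgeR with Benjamini-Hochberg). Each of these 3 genes was highest in inside graft 2 and lowest in outside graft 3, as most members were.

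Other genes of translation were described by the same fit, with 0 genes past an adjusted P of 0.01 by edgeR, voomWithQualityWeights or DESeq2 in any of the lists of this paragraph. Of 9 elongation and termination factors, 7 were above 0 with a median log2 fold change of 0.25, and 2 had an unadjusted P below 0.05 upward and 1 downward. Eef1a1, which brings aminoacyl-tRNA to the ribosome, had 748, 932 and 727 CPM inside and 621, 681, 458 and 561 CPM outside the graft, without overlap (log2 fold change 0.47, SE 0.15, adjusted P = 0.291 by edgeR with Benjamini-Hochberg). Eef2, the translocase, had 359, 398 and 324 CPM inside and 273 to 289 CPM outside, also without overlap (log2 fold change 0.36, SE 0.11). Both genes carry TOP elements, as does Nap1l1, at 0.42 (SE 0.17), and Tpt1, at 0.29 (SE 0.19). The list of 6 TOP transcripts that holds Nap1l1 and Tpt1 had a median of 0.10. Its remaining genes were Gas5 at 0.14, Hnrnpa1 at 0.06, Btf3 at −0.06 and Naca at −0.08.

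Initiation factors and biogenesis factors lay nearer to all genes. Of 29 initiation factors, 19 were above 0 with a median log2 fold change of 0.07, and 2 had an unadjusted P below 0.05, both upward. These were Eif3f, a subunit of eIF3, at 0.44 (SE 0.17), and Eif4b, the helper of the helicase eIF4A, at 0.34 (SE 0.14). Of 30 ribosome biogenesis factors, 21 were above 0 with a median of 0.13 and 0 unadjusted P below 0.05, and the largest was Rrp12, at 0.70 (SE 0.35). Nop10, a subunit of the pseudouridylation complex, was at 0.34 (SE 0.20). Among 15 tested mTORC1 and Myc regulators the median was 0.06, with Eif4ebp1 at 0.41 (SE 0.20) and Mtor at −0.26 (SE 0.21).

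The genes of the mitochondrial ribosome were centered near 0. Of 78 mitochondrial ribosomal protein genes, 35 were above 0 with a median log2 fold change of −0.04, and 1 had an unadjusted P below 0.05 upward and 2 downward. Mrps7 was at −0.53 (SE 0.18) and Mrpl54 at 0.45 (SE 0.28). The 20 tested genes of the mitochondrial genome had a median of 0.25, with 17 above 0 and 0 unadjusted P below 0.05, and mt-Co1 was at 0.27 (SE 0.12) and mt-Rnr1 at −0.38 (SE 0.31). The difference between cytoplasmic and mitochondrial ribosomal genes was not tested. Members have short transcripts, with a median of 774.5 bases. Over 1569 other protein-coding genes with transcripts under 1000 bases and at least 10 CPM the median was −0.01, and over 6976 longer ones −0.02, while removal of the length trend over all genes lowered the members' median from 0.35 to 0.22.

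**Figure D5:**
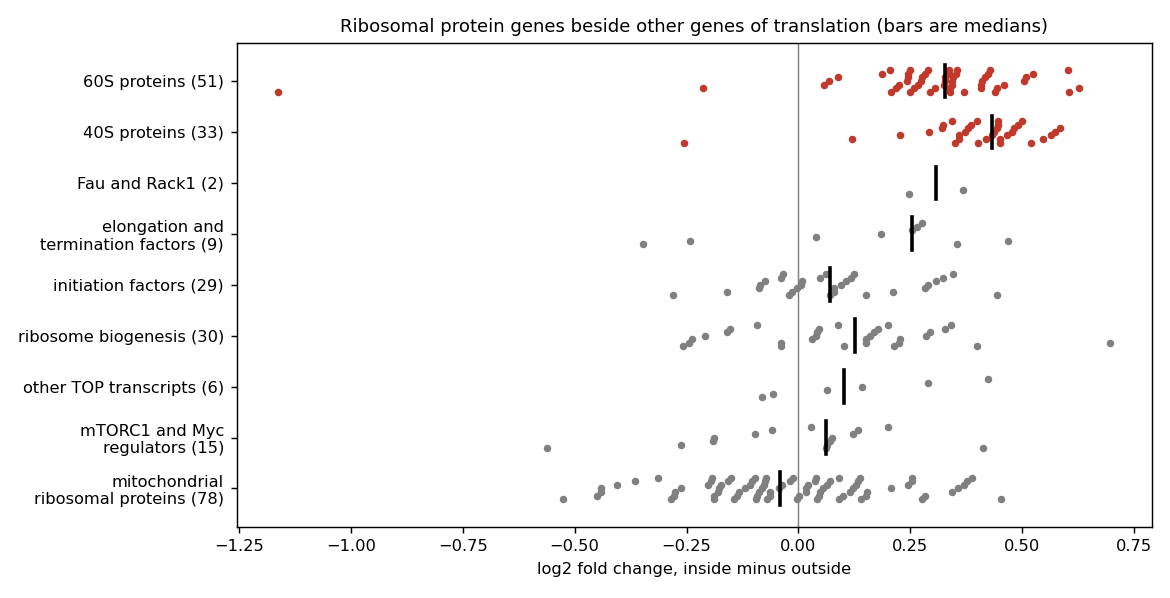
Log2 fold change (inside minus outside, edgeR) of each tested gene, 1 point per gene, with the number of genes in brackets and black bars for medians. The 60S (0.33) and 40S (0.43) members lie to the right of initiation factors (0.07), biogenesis factors (0.13) and mitochondrial ribosomal proteins (−0.04).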

How the data were processed

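Per the labels and the study's methods, libraries were made with SMART-Seq v4 from sorted microglia and sequenced as single reads. The authors processed them with bcl2fastq 2.18, STAR 2.7.2a and featureCounts 1.6.2 on GENCODE M21 and deposited raw counts per gene name, without strand and without reads that align to several places. This lowers genes with near-identical copies. Without strand, reads where exons of different genes overlap cannot be placed by direction. The standard settings that the methods name leave such reads uncounted, which can lower these genes too. Of 84 tested members, 39 overlap an exon of another gene, 19 of them antisense.

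From these counts, CPM with TMM factors, log2 fold changes and tests were computed in R 4.3.3. The tools were edgeR 4.0.16 (filterByExpr, glmQLFit, glmQLFTest), limma 3.58.1 (voomWithQualityWeights) and DESeq2 1.42.0. For edgeR and limma, Benjamini-Hochberg adjustment ran over all 15257 genes. DESeq2 used its default Benjamini-Hochberg adjustment, which can leave genes without an adjusted P. Thresholds were 0.01 and 0.05. Standard errors follow from the F statistic. Scripts were tested on simulated data, where edgeR and voomWithQualityWeights held their error rate and DESeq2 made more false calls than its threshold allows.

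Named genes were the 5 highest, 5 lowest and 5 smallest-P members of at least 10 CPM, the 3 highest and 3 lowest per kilobase, paralogs, members with set roles, and in each related list those past 0.01 or the 2 largest changes. Other genes, the ratio of subunits and the sequences shown were chosen after their values were seen. Alternatives were other normalizations, filters and tests, the replicate number as a block, and each library left out. The members and lists were chosen with earlier results of these data known. A few genes are not reported here by name.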

Additional observations from a re-analysis of the deposited data

Results flagged for a closer look

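In the groups of 4 outside libraries, 43 sets of values were searched for 1 library far from the others, and 2 were found, against about 1 in 20 by chance (2.15 of 43). Rpl39l stood at 1.33 CPM in outside graft 1, against 0.648 to 0.756 CPM in the other outside libraries, which is 25 reads against 16 to 18. Rps6 stood at 89 CPM in outside graft 2, against 56.7 to 62.2 CPM in the others, the value that made its groups overlap. Groups of 3 libraries were not searched.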

How the results depend on the processing

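Under other normalizations, filters and tests, 0 members passed an adjusted P of 0.01, as in every fit without 1 library, and the members' median log2 fold change stayed between 0.31 and 0.47 apart from the length trend (0.22). Leaving out 1 library moved the median between 0.18 and 0.48, the members above 0 between 76 and 81, the members without overlap between 2 and 35, and the difference in the share of counts between 0.0822 and 0.215 percentage points. Members with under 50% shared stretches, a smaller set of 50 by construction, had 48 above 0. Deviations of same-numbered libraries correlated at −0.0609, 0.102 and 0.0883, so the numbers were not taken as pairs, and whether libraries share a mouse is not known. With the replicate block, without outside graft 4, the median was 0.31, 79 members were above 0, voomWithQualityWeights called Rpl32 at 0.05 (adjusted P = 0.0463 with Benjamini-Hochberg) and 1.78% of all genes, with 77 genes at 0.01 against 3 without the block, and Rpl27 and Rpl24 turned to −0.0267 and −0.0657. Without 1 library, the log2 fold change of Rpl24 ranged from −0.221 to 0.310, of Rpl27 from −0.114 to 0.233, of Rps10 from −0.0928 to 0.258, of Rpl36al from −0.00575 to 0.197 and of Rpl5 from −0.0269 to 0.384, each lowest without inside graft 2. Rpl24, Rpl27 and Rpl36al were also below 0 without outside graft 3 or 4. The cause of these moves was not tested. Over all genes, edgeR's test called 0 genes at 0.01 with its own filter, 190 with no filter on low counts and 20 with at least 10 counts in every library, and DESeq2 called 232 on the genes that edgeR's filter kept. With voomWithQualityWeights these filters gave 3, 41 and 48 genes. The 95% interval of 68 of the 84 tested members lay within a log2 difference of 1 in either direction.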
